A study of Homo sapiens with 3 samples.

Results

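The subunits of the hypoxia-inducible factors (HIF) and the enzymes that sense oxygen for them were examined in Hep3B cells, an established human hepatoma line, wild type by its label. They are 10 genes of the 61533 listed, taken by gene name: the alpha subunits HIF1A, EPAS1 and HIF3A, the beta subunits ARNT and ARNT2, the prolyl hydroxylases EGLN1, EGLN2 and EGLN3, the asparaginyl hydroxylase HIF1AN and the ubiquitin ligase subunit VHL. Polyadenylated RNA was sequenced from cells in 20% oxygen (normoxia), in 1% oxygen (hypoxia), and in 1% oxygen plus sodium oxamate. Oxamate blocks lactate dehydrogenase, which makes lactate from pyruvate, and its culture time is given as 48 hours. All cells were grown in DMEM with fetal bovine serum, and no library had oxamate in 20% oxygen. With 1 library per condition, the spread between separate cultures is not known, nothing below could be checked in a replicate, and no p-value is given.

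In cells with enough oxygen, the prolyl hydroxylases use oxygen, iron and 2-oxoglutarate to hydroxylate the alpha subunits, and VHL then marks the hydroxylated protein for destruction. HIF1AN, also called FIH, hydroxylates an asparagine that the coactivators p300 and CBP need unmodified. In low oxygen the alpha subunit escapes both steps, pairs with ARNT and binds hypoxia response elements, whose core is ACGTG or GCGTG, near genes of glycolysis, angiogenesis and red cell production. The Hep3B line has long been used to study erythropoietin, a classical target. The main control of the alpha subunits acts on the protein, which RNA sequencing does not measure.

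Stretches of DNA before the transcription starts show which of these genes carry such a core close by. RefSeq (GRCh38.p14) gave the 250 bases upstream of 12 starts of 8 of the 10 genes, all but ARNT2 and VHL. ACGTG was found before 2 of the 12 starts and GCGTG before 3, counting both strands, against 18.5% and 32.2% of 35116 human promoter stretches of that length. Either core was found before 5 of the 12 starts, beside 43.2% of the 35116. The stretches below belong to the hydroxylase genes EGLN1 and EGLN3, to HIF3A and, for contrast, to HIF1A, with each core in capitals and every sequence written 5′ to 3′ along the gene. Of EGLN1 only the last 30 bases before the start are shown (chr1:231422288-231422317, minus strand), since GENCODE 29 places an untranslated exon over all 250 bases, the core included. EGLN3 (chr14:33951082-33951324, minus strand) is shown from -250 to -8, without the 7 bases next to its start that lie in an untranslated exon. The others are HIF3A at its first start (chr19:46296792-46297041, plus strand) and HIF1A at its first start (chr14:61695263-61695512, plus strand).
EGLN1: ccgcggggccgtggtgtACGTGcagagcgc
EGLN3: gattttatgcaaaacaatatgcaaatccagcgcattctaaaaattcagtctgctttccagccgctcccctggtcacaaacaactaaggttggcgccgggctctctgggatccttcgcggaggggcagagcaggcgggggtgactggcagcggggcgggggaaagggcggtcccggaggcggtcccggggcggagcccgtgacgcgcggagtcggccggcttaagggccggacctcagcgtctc
HIF3A: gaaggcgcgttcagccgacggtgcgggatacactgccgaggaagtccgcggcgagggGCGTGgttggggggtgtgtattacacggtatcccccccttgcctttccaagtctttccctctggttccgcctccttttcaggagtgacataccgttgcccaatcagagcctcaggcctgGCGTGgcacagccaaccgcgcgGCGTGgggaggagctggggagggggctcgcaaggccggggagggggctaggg
HIF1A: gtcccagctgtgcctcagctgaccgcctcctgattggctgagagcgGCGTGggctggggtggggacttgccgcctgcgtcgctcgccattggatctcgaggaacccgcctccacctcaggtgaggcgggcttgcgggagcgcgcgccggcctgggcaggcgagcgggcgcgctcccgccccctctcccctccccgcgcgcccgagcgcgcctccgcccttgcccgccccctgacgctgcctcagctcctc
EGLN1 held 1 ACGTG, at bases -13 to -9 from its start. HIF3A held 3 copies of GCGTG before its first start, beginning at -193, -74 and -52. HIF1A held 1 GCGTG beginning at -204, and EPAS1 1 beginning at -117. EGLN2 held ACGTG on both strands at -49 to -44, which together form an E-box, CACGTG, a motif read by other basic helix-loop-helix factors and present in 6.34% of the 35116 stretches. The windows of EGLN3, ARNT and HIF1AN held neither core, nor did the windows of the later starts of HIF1A, HIF3A and EGLN2. Those of EGLN3, HIF1AN and EPAS1 lie inside the gene spans given below, and the sequence before the 5′ ends of these spans was not searched. A core in a window is a match of letters and not a binding site, and elements farther away were not searched.

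**Figure D1:**
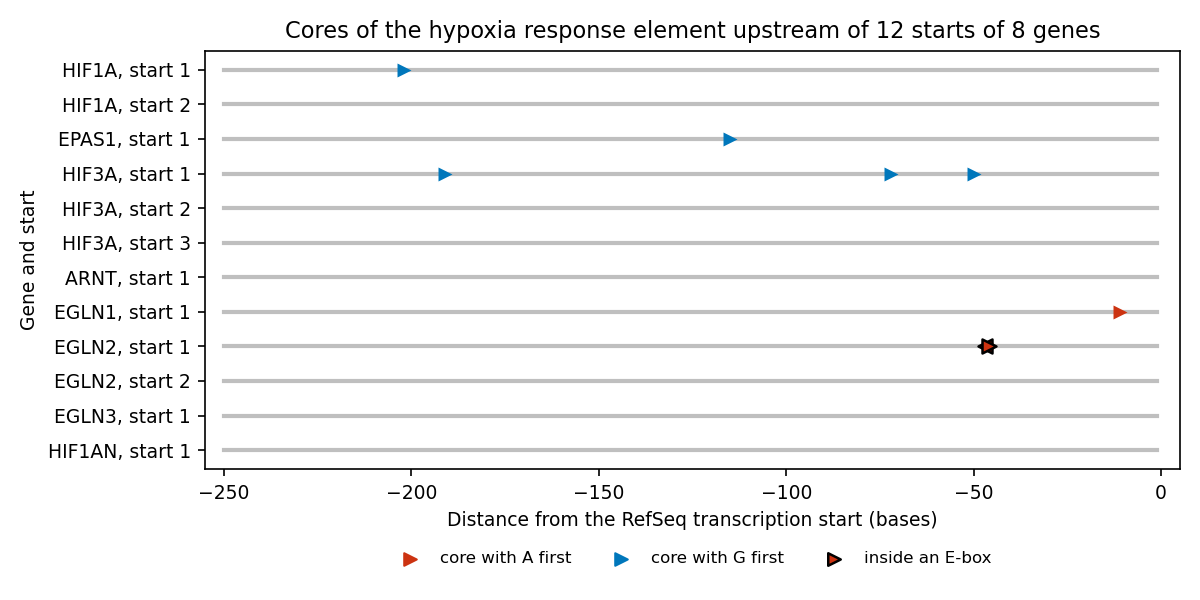
Positions of the 5-letter cores within 250 bases upstream of 12 RefSeq starts of 8 genes; the x axis is the distance from the start in bases, each grey line is 1 start, and triangles point along the strand of the core. A core of either form lies on 5 of the 12 lines, beside 43.2% of 35116 human promoter stretches of that length. The overlapping pair before the first start of EGLN2 lies inside an E-box.

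The libraries held 27412147 (normoxia), 26309340 (hypoxia) and 24826365 (hypoxia with oxamate) fragments assigned to genes. Levels are given as the deposited FPKM, fragments relative to exon length and to a library total, which allows different genes to be set side by side. The totals implied by these values were already scaled. They stood at 0.938, 1.06 and 1.02 times the assigned fragments in normoxia, hypoxia and oxamate. Ratios between libraries are of fragments scaled by TMM (trimmed mean of M values), and each has a 95% interval from the exact conditional binomial distribution, which covers counting error alone. A gene with at least 50 fragments in either library counted as measured, and it was called higher or lower when its ratio was at least 2-fold. Hepatoma identity was seen in all libraries: all 10 hepatocyte and hepatoma markers had over 50 fragments in each, and ALB, the gene of serum albumin, stood at 5362, 2578 and 1963 FPKM in normoxia, hypoxia and oxamate. The summed level of those 10 markers was 8813, 5657 and 3344 FPKM in the same order. In hypoxia against normoxia, 5 of the 10 were called lower and 1 higher, beside 8.06% and 10.8% of all measured genes. With oxamate against hypoxia, 6 were called lower and 0 higher, beside 5.07% and 5.92% of all measured genes. In bulk RNA, fewer cells of a type and less RNA per cell cannot be told apart, and the part of this shift in the results on the HIF genes was not tested. Among markers of other cells, the blood genes CD3E and HBB, the endothelial gene KDR and the fibroblast and stellate gene ACTA2 had 0 fragments in every library. Other genes of these lists did have fragments. In normoxia, hypoxia and oxamate, LUM had 397, 412 and 580, PDGFRB 315, 438 and 110, and COL1A1 76, 130 and 51. The blood gene CD14 had 140, 22 and 17. The 5 blood markers summed to 3.46, 0.480 and 0.479 FPKM and the 5 fibroblast and stellate markers to 7.83, 8.30 and 9.43 in normoxia, hypoxia and oxamate. The 5 endothelial markers summed to 0.178, 1.08 and 2.57 FPKM, nearly all of it from PECAM1, with 33, 230 and 499 fragments. The 4 markers of cholangiocytes and other epithelium summed to 499, 325 and 358 FPKM, mostly from KRT19 and EPCAM.

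In hypoxia, 2 of the 9 measured HIF genes were called higher than in normoxia, HIF3A and EGLN3, and 0 were called lower. Over all 13554 measured genes, 10.8% were called higher and 8.06% lower in that comparison. With oxamate against hypoxia, 0 of the 9 were called in either direction, beside 5.92% of 13739 genes higher and 5.07% lower. With oxamate against normoxia, 3 of the 9 were called higher, HIF3A, EGLN1 and EGLN3, and 0 lower, beside 15.4% of 13597 genes higher and 15.3% lower. The median log2 ratios of the 9 were 0.23, 0.14 and 0.45 in the 3 comparisons, and those of all measured genes were -0.11, -0.01 and -0.11. Each library enters 2 of the 3 comparisons, which are therefore not independent. ARNT2 was never measured by this rule, and HIF3A was measured against normoxia only through its level in the 1% oxygen libraries. Scaling by total fragments instead moved the median of all genes in hypoxia against normoxia from -0.11 to 0.04 and the calls from 1468 higher and 1093 lower to 1775 and 751, with EGLN1 then passing the 2-fold rule.

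**Figure D2:**
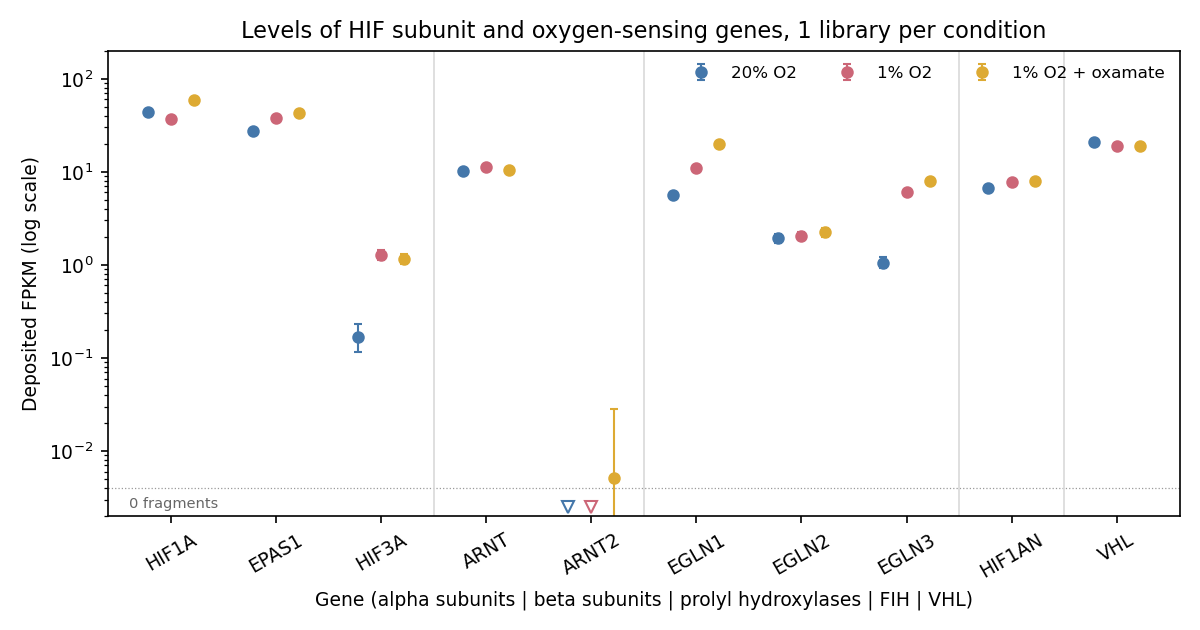
Deposited FPKM on a log axis for each of the 10 genes in the 3 libraries (1 library per condition), with bars for the 95% counting interval; open triangles mark 0 fragments. HIF1A and EPAS1 lie at the top, between 27.3 and 58.7 FPKM, while the levels of EGLN1, EGLN3 and HIF3A are set apart most widely between 20% and 1% oxygen.

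HIF1A encodes the alpha subunit present in most cell types, and it was the member with the highest level in normoxia. Its level was 43.6 FPKM in normoxia (5776 fragments), 37.3 in hypoxia (5335) and 58.7 with oxamate (7642). The library with oxamate was thus the highest and hypoxia the lowest, with counting intervals that do not overlap. The ratio of hypoxia to normoxia was 0.863 (0.832 to 0.896), which 56.2% of measured genes exceeded. The ratio of oxamate to hypoxia was 1.58 (1.53 to 1.64), below the 2-fold rule, with 11.3% of measured genes above it. Against normoxia the oxamate library stood at 1.37 (1.32 to 1.42). HIF1A lies at chr14:61695513-61748259 on the plus strand in hg38, and 5.14% of its exon bases are shared with 2 other genes of GENCODE 29. Those 2, the antisense gene HIF1A-AS1 and ENSG00000258964, had at most 7 fragments in any library.

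EPAS1 encodes HIF-2 alpha, the subunit to which erythropoietin control in the liver is usually ascribed. Its level was 27.3 FPKM in normoxia (5127 fragments), 38.2 in hypoxia (7747) and 43.3 with oxamate (7991). It was lowest in normoxia and highest with oxamate, again with separate counting intervals. The ratios were 1.41 (1.36 to 1.46) for hypoxia against normoxia, 1.14 (1.11 to 1.18) for oxamate against hypoxia and 1.61 (1.56 to 1.67) for oxamate against normoxia. EPAS1 lies at chr2:46293667-46386697 on the plus strand and shares no exon bases with another GENCODE 29 gene.

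The balance of the 2 main alpha subunits also differed between libraries, and it does not depend on how libraries are scaled. Per exon length, EPAS1 stood at 0.627 of HIF1A in normoxia (0.604 to 0.651), at 1.03 in hypoxia (0.991 to 1.06) and at 0.739 with oxamate (0.716 to 0.762). In hypoxia the 2 transcripts could not be separated by counting error, whereas HIF1A was ahead in both other libraries. The balance depends on the exon length used: by fragments alone, EPAS1 had the larger share in hypoxia (57.9%) and with oxamate (50.3%), and with only unshared exon bases its share in hypoxia was 48.5%. As a share of the summed alpha subunit FPKM, HIF1A took 61.3%, 48.5% and 56.9% in normoxia, hypoxia and oxamate, and EPAS1 38.5%, 49.8% and 42.0%. The summed alpha level itself was 71.1, 76.7 and 103 FPKM.

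HIF3A encodes the third alpha subunit, several splice forms of which lack the activation domain and can oppose the other alpha subunits. It was scarce throughout, at 0.167 FPKM in normoxia (36 fragments), 1.28 in hypoxia (298) and 1.16 with oxamate (245). Both 1% oxygen libraries lay far above normoxia and their own intervals overlapped. The ratio of hypoxia to normoxia was 7.74 (5.46 to 11.3), the highest value of the 9 measured genes but overlapping in its interval with that of EGLN3, and 1.3% of measured genes had a larger one. Oxamate against normoxia gave 7.04 (4.95 to 10.3), and oxamate against hypoxia 0.910 (0.765 to 1.08). Even at its highest, HIF3A made up 1.67% of the alpha subunit FPKM, and HIF1A stood 29.1 times higher in that library (25.9 to 32.8). HIF3A lies at chr19:46297042-46343433 on the plus strand. It shares 3.31% of its exon bases with an antisense gene that had 0 fragments in all libraries. The tables sum all splice forms of a gene, so the forms of HIF3A were not separated.

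ARNT, the partner that an alpha subunit needs to bind DNA, differed by at most 1.11-fold between libraries. It stood at 10.2 FPKM in normoxia (1686 fragments), 11.2 in hypoxia (2007) and 10.6 with oxamate (1722). The ratio of hypoxia to normoxia was 1.11 (1.04 to 1.19) and that of oxamate to hypoxia 0.949 (0.890 to 1.01). ARNT lies at chr1:150809713-150876708 on the minus strand and shares no exon bases with another GENCODE 29 gene. ARNT2, the relative of ARNT best known from the nervous system (chr15:80404350-80597933, plus strand), had 0 fragments in normoxia and in hypoxia and 1 with oxamate. A count of 0 allows up to 0.116 and 0.108 CPM (fragments relative to the scaled library total) in those 2 libraries. Per exon length, the summed alpha subunits stood at 6.99, 6.86 and 9.76 times the summed beta subunits in normoxia, hypoxia and oxamate.

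EGLN1 encodes PHD2, regarded as the main oxygen sensor of the HIF pathway and itself known as a HIF target. Its level was 5.63 FPKM in normoxia (780 fragments), 11.0 in hypoxia (1649) and 19.8 with oxamate (2700). The 3 libraries were ordered and their counting intervals were separate. Hypoxia against normoxia gave a ratio of 1.98 (1.81 to 2.15), just under the 2-fold rule, with 10.9% of measured genes above it. Oxamate against hypoxia gave 1.81 (1.70 to 1.93), the largest ratio of the 9 in that comparison, with 7.63% of measured genes above it. Oxamate against normoxia gave 3.58 (3.30 to 3.88). The gene lies at chr1:231363751-231422287 on the minus strand, and the ACGTG printed above ends 9 bases before that start. A second gene without a symbol overlaps its span on the same strand and had 0 fragments in every library. Whether the 2 share exons is not known from the annotation used here.

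EGLN3 encodes PHD3, the family member whose transcript is best known for a strong response to low oxygen, with a response element described in an intron. It stood at 1.06 FPKM in normoxia (200 fragments), 6.08 in hypoxia (1245) and 8.04 with oxamate (1497). Normoxia was far below both other libraries, and oxamate was above hypoxia. The ratios were 5.82 (5.01 to 6.79) for hypoxia against normoxia, with 1.84% of measured genes above it, and 1.33 (1.23 to 1.43) for oxamate against hypoxia. Oxamate against normoxia gave 7.74 (6.68 to 9.02), with 2.63% of measured genes above it. EGLN3 lies at chr14:33924227-34462774 on the minus strand and shares no exon bases with another GENCODE 29 gene. Its antisense neighbour EGLN3-AS1, inside that span on the other strand, had 0, 38 and 5 fragments in normoxia, hypoxia and oxamate. A list of antisense and readthrough genes at the loci of the 10 genes also held RAB4B, named with EGLN2 in the readthrough gene RAB4B-EGLN2. Of the 5 genes found from it, 0 were measured in hypoxia against normoxia. RAB4B alone was measured in the other 2 comparisons, with 17, 46 and 60 fragments, and only through its level in the oxamate library. It was called higher with oxamate than in normoxia, at 3.65 (2.10 to 6.67), beside 15.4% of all measured genes. Strand use in the counting is not given in the sources used here.

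EGLN2 encodes PHD1, which is not usually counted among the HIF-induced genes. It stood at 1.93 FPKM in normoxia (327 fragments), 2.05 in hypoxia (374) and 2.24 with oxamate (372). All 3 counting intervals overlapped. The ratio of hypoxia to normoxia was 1.07 (0.919 to 1.24), that of oxamate to hypoxia 1.10 (0.951 to 1.27) and that of oxamate to normoxia 1.18 (1.01 to 1.37). EGLN2 lies at chr19:40798996-40808434 on the plus strand. It shares 30.6% of its exon bases with the readthrough gene RAB4B-EGLN2, which had 0 fragments in every library, so the level of EGLN2 is uncertain where reads could fall to either gene.

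The 3 prolyl hydroxylases summed to 8.62 FPKM in normoxia, 19.1 in hypoxia and 30.1 with oxamate. EGLN1 was the largest of the 3 in each library, with 65.3%, 57.6% and 65.9% of the sum. The other two exchanged places. EGLN3 stood at 0.546 of EGLN2 per exon length in normoxia (0.456 to 0.653), and at 2.97 in hypoxia (2.65 to 3.34) and 3.59 with oxamate (3.21 to 4.04). The share of EGLN2 was 22.4%, 10.7% and 7.43% in the 3 libraries, and that of EGLN3 12.2%, 31.8% and 26.7%. Per exon length, the summed prolyl hydroxylases stood at 0.121 of the summed alpha subunits in normoxia, 0.249 in hypoxia and 0.292 with oxamate.

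**Figure D3:**
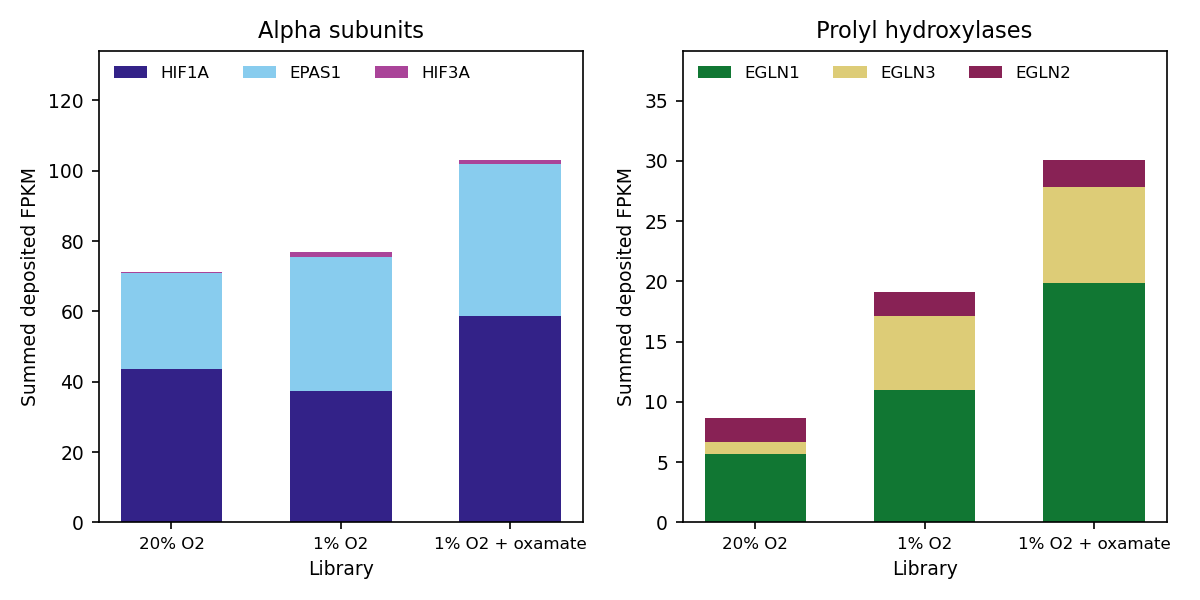
Deposited FPKM summed over the alpha subunits (left) and the prolyl hydroxylases (right) in each library, stacked by gene on linear axes that start at 0. The hydroxylase bar goes from 8.62 to 19.1 and 30.1 FPKM, and HIF3A is barely visible beside HIF1A and EPAS1.

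HIF1AN, the asparaginyl hydroxylase, varied little. It stood at 6.67 FPKM in normoxia (2383 fragments), 7.74 in hypoxia (2990) and 7.89 with oxamate (2772). The ratio of hypoxia to normoxia was 1.17 (1.11 to 1.24), but it went to the other side of 1 when the trend of ratios with gene length was removed (log2 ratio -0.06), and oxamate against hypoxia gave 1.03 (0.974 to 1.08). HIF1AN stood above EGLN1 in normoxia, at 1.18 times its level per exon length (1.09 to 1.28), and below it in hypoxia at 0.702 (0.661 to 0.746) and with oxamate at 0.398 (0.377 to 0.419). These values rest on the deposited exon length of EGLN1, 5381 bases, where GENCODE 29 gives 7265. The gene lies at chr10:100529072-100559998 on the plus strand and shares 2.33% of its exon bases with NDUFB8.

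VHL, which recognises hydroxylated alpha subunits, followed the 2 main alpha subunits in level per exon length in normoxia and in hypoxia. It stood at 21.1 FPKM in normoxia (2657 fragments), 18.9 in hypoxia (2571) and 18.7 with oxamate (2318). The 2 libraries in 1% oxygen overlapped in their intervals. The ratio of hypoxia to normoxia was 0.904 (0.856 to 0.955), which became a log2 ratio of 0.01 when libraries were scaled by total fragments, and oxamate against hypoxia gave 0.998 (0.943 to 1.06). VHL lies at chr3:10141778-10153667 on the plus strand and shares no exon bases with another GENCODE 29 gene.

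Ordered by FPKM, the 10 genes in normoxia ran HIF1A, EPAS1, VHL, ARNT, HIF1AN, EGLN1, EGLN2, EGLN3, HIF3A and ARNT2, and no neighbours overlapped in their counting intervals. In hypoxia the order was EPAS1, HIF1A, VHL, ARNT, EGLN1, HIF1AN, EGLN3, EGLN2, HIF3A and ARNT2. There the pair EPAS1 and HIF1A and the pair ARNT and EGLN1 overlapped. With oxamate EGLN1 was behind HIF1A and EPAS1 alone, at 19.8 FPKM and overlapping with VHL, and EGLN3 at 8.04 FPKM overlapped with HIF1AN. These orders and overlaps rest on the deposited exon lengths. For EGLN1 that length is 5381 bases, against 7265 exon bases in GENCODE 29, and for VHL 4890 against 4213. The orders with GENCODE 29 lengths were not worked out. Among 19871 protein-coding genes, EGLN1 lay above 67.8% in normoxia, 82.1% in hypoxia and 90.2% with oxamate, and EGLN3 above 48.3%, 71.1% and 76.4%.

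**Figure D4:**
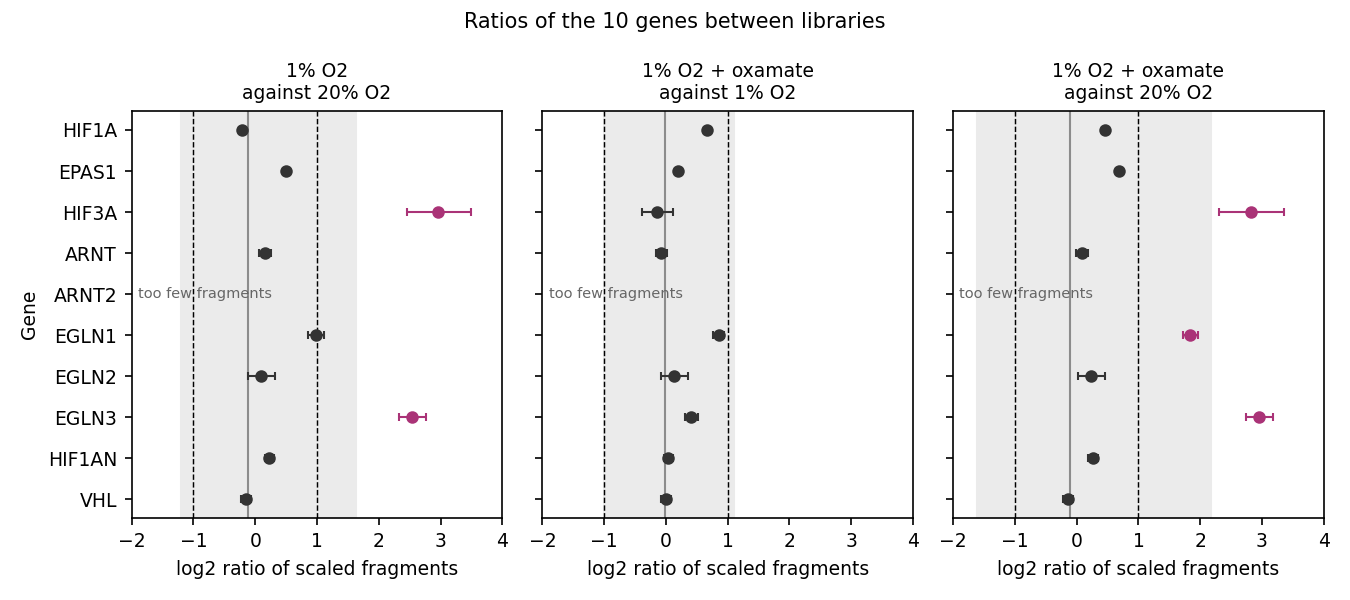
log2 ratios of scaled fragments for the 10 genes in 3 comparisons, with 95% counting intervals; dashed lines mark 2-fold, the grey band spans the 5th to 95th percentile of all measured genes and the grey line their median. HIF3A and EGLN3 lie right of the band wherever 1% oxygen is set against 20%, and no gene lies beyond 2-fold in the oxamate against hypoxia panel.

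The genes around this core were read from lists written for the pathway. Of the 4 partners that build the VHL ubiquitin ligase, 0 were called in hypoxia against normoxia. ELOB stood at 0.718 (0.661 to 0.779), ELOC at 0.794 (0.740 to 0.852), the scaffold CUL2 at 0.694 (0.652 to 0.739) and the ring finger subunit RBX1 at 0.907 (0.852 to 0.966), which became 1.01 under total fragments. The median log2 ratio of the 4 was -0.41 beside -0.11 for all measured genes. With oxamate against hypoxia again 0 of the 4 were called, and their median was -0.19.

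Among 8 measured regulators of the hydroxylases, 0 were called in hypoxia against normoxia and 2 were called higher with oxamate than without, beside 5.92% of all measured genes. Their median log2 ratios were -0.19 and 0.28 in those comparisons. SIAH2, a ubiquitin ligase that degrades prolyl hydroxylases, stood at 15.0, 9.35 and 21.1 FPKM in normoxia, hypoxia and oxamate, a ratio of oxamate to hypoxia of 2.27 (2.07 to 2.49). AJUBA, a LIM protein that brings hydroxylase and VHL together, stood at 20.2, 20.0 and 43.9 FPKM, a ratio of 2.20 (2.11 to 2.30). The lowest ratio of the 8 in that comparison was 0.641 (0.614 to 0.670) for FKBP8, a binding partner of PHD2. In hypoxia against normoxia the lowest was 0.510 (0.497 to 0.522) for PTGES3, the cochaperone p23.

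Of 10 genes that act on alpha subunit turnover by other routes, 1 was called lower and 0 higher in hypoxia against normoxia, beside 8.06% of all measured genes lower, and their median log2 ratio was -0.43. That was HSP90AA1, a chaperone of HIF-1 alpha, at 482, 237 and 212 FPKM in the 3 libraries (ratio of hypoxia to normoxia 0.497, 0.491 to 0.504). The call was lost under total fragments (0.554) and under TMM over protein-coding genes (0.537), and HSP90AB1 stood just inside the rule at 0.542 (0.534 to 0.549). With oxamate against hypoxia, COMMD1 was the 1 gene called lower, at 0.488 (0.373 to 0.636), and 0 were higher. The median of the 10 in that comparison was 0.03 and turned to -0.03 under total fragments. Of 10 measured coactivators and CITED proteins, 1 was called higher in hypoxia and 0 lower, beside 10.8% and 8.06% of all measured genes. CITED2, which competes with HIF for p300 and CBP, stood at 13.7, 38.5 and 38.6 FPKM in normoxia, hypoxia and oxamate, a ratio of hypoxia to normoxia of 2.83 (2.63 to 3.06). The median of the 10 was 0.25. Among them ING4 stood at 1.59 (1.39 to 1.82), EP300, the gene of p300, at 1.18 (1.13 to 1.22), CREBBP, the gene of CBP, at 1.09 (1.04 to 1.13) and TRIM28 at 0.653 (0.641 to 0.665). In oxamate against hypoxia their median was -0.09, and 0 of the 10 were called.

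The other 8 measured genes of the bHLH-PAS class, to which HIF and ARNT belong, had 0 calls in hypoxia against normoxia and a median log2 ratio of -0.20. With oxamate against hypoxia 3 were called higher and 0 lower, beside 5.92% and 5.07% of all measured genes, and the median log2 ratio was 0.46 beside -0.01. NPAS2, a partner of BMAL1 in the circadian clock, stood at 9.44, 6.98 and 16.6 FPKM, a ratio of oxamate to hypoxia of 2.39 (2.27 to 2.5). NPAS1 stood at 2.06 (1.71 to 2.5), a call lost under total fragments (1.98), and NPAS3 at 2.5 (2.03 to 3.10) in that comparison.

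Transcripts usually assigned to 1 of the 2 main alpha subunits were set beside the subunits themselves. Over all measured genes, 10.8% were called higher and 8.06% lower in hypoxia, and 5.92% higher and 5.07% lower with oxamate than without. Of 12 genes often assigned to HIF1A, 11 were called higher in hypoxia and 0 lower, beside a ratio of 0.863 for HIF1A itself. Among the 11, ANKRD37 was measured only through its level in hypoxia (30 fragments in normoxia and 212 in hypoxia). With oxamate against hypoxia, 3 of the 12 were called higher. The median log2 ratios were 1.57 and 0.69. CA9, carbonic anhydrase 9, stood at 4.21, 115 and 144 FPKM in normoxia, hypoxia and oxamate, a ratio of hypoxia to normoxia of 27.6 (23.7 to 32.3). SLC2A1, the glucose transporter GLUT1, stood at 3.51, 10.1 and 25.9 FPKM, with ratios of 2.90 (2.64 to 3.18) for hypoxia against normoxia and 2.59 (2.45 to 2.73) for oxamate against hypoxia. Of 7 measured genes often assigned to EPAS1, 3 were called higher and 1 lower in hypoxia, and 1 higher with oxamate than without. Their medians were 0.31 and 0.44. EPO, erythropoietin, had 21, 180 and 93 fragments, a ratio of hypoxia to normoxia of 8.01 (5.09 to 13.3) and of oxamate to hypoxia of 0.572 (0.440 to 0.738). EPO, among the 3 called higher, was thus measured in hypoxia against normoxia only through its level in hypoxia. The amino acid transporter SLC7A5 was the 1 called lower in hypoxia, at 58.4, 11.8 and 23.8 FPKM. It was also the 1 called higher with oxamate than without, at 2.03 (1.91 to 2.16), a call lost under total fragments (1.95) and, narrowly, with no filter before scaling.

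**Figure D5:**
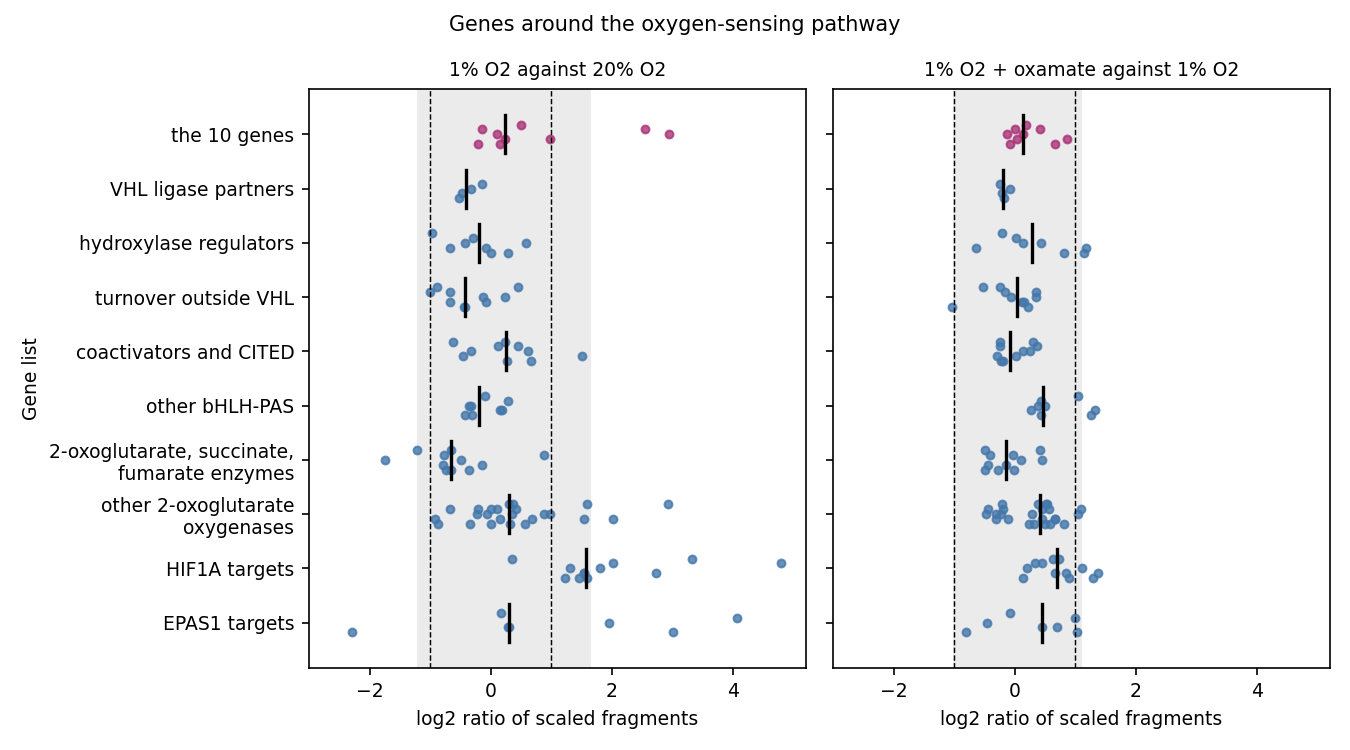
log2 ratios of scaled fragments for the measured genes of each list (points) with the list median (black bar), for hypoxia against normoxia (left) and oxamate against hypoxia (right); dashed lines mark 2-fold and the grey band spans the 5th to 95th percentile of all measured genes. The HIF1A target list has 11 of 12 points right of the upper line on the left, and the VHL ligase partners have all 4 points left of 0 in both panels, although under total fragments RBX1 moves to a ratio of 1.01 on the left.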

How the data were processed

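Polyadenylated RNA was analysed from 3 Hep3B libraries, 1 per condition. The deposited tables list 61533 genes with exon length and 1 value per gene, which by its behaviour is FPKM. The submitters' processing notes name hg38, edgeR 3.22.5, featureCounts 1.5.0-p3, StringTie 1.3.3b and HISAT2 2.0.5, with no role or order. Multiplied by exon length, 100% of values above 0 came within 0.01 of a whole multiple of 1 constant per library, and these whole numbers were taken as the count of fragments.

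TMM scaling (Python 3.11.15, numpy 2.4.6, pandas 2.3.3, scipy 1.17.1, statsmodels 0.14.6) used 21987 genes that reached 10 fragments in sum, with trims of 30% for log ratios and 5% for levels, and gave factors of 0.944 for normoxia, 1.05 for hypoxia and 1.01 for oxamate. No test was possible. Genes were called at a 2-fold ratio if the higher library held 50 fragments or more, and a count of 0 had a floor of 3 fragments. Reads carried no molecular identifiers, so intervals and floors describe counting error, not independent molecules. The procedure was tested on simulated data. Exon overlaps came from GENCODE 29, which holds 58356 of the listed genes.

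The 10 genes, the 10 pathway lists (107 of 109 entries found) and the marker lists were chosen with earlier results of these data known. From each pathway list the text takes its counts, its median where it has measured genes, and genes among the 2 highest and 2 lowest ratios or past the rule, and EP300, CREBBP and P4HTM were named in addition. The values of 1 listed gene are not reported here. Scaling, filter, size rule, length, GC content and exon overlap were varied, and the scalings also for the pathway lists, an alternative added after the data were seen.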

Additional observations from a re-analysis of the deposited data

How the results depend on the processing

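The 2 calls in hypoxia against normoxia became 1 when the 5 genes that share exon bases with another gene were left out, since HIF3A is among them. With a ratio of at least 1.5 as the rule, 2 genes were called higher with oxamate than without, HIF1A and EGLN1. EGLN1 in hypoxia against normoxia passed the 2-fold rule under total fragments (2.20) and under TMM over protein-coding genes (2.14). Under the 8 alternative scalings and corrections, 186 of 216 log2 ratios of the 9 measured genes stayed within their counting interval. The other 30 moved out of it, and 0 called ratios changed sign. Median of ratios and the deposited FPKM, both among the 8, gave the same library totals, so their ratios are counted 2 times in the 216.

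Shares within a family depended on the length used. The deposited exon length of EGLN1, 5381 bases, is below its 7265 exon bases in GENCODE 29, and shares with the latter were not worked out. From fragments without length, EPAS1 took 46.9%, 57.9% and 50.3% of the alpha subunits in normoxia, hypoxia and oxamate, and EGLN1 59.7%, 50.5% and 59.1% of the prolyl hydroxylases. With only exon bases that no other GENCODE 29 gene shares, an alternative chosen after the data were seen, these were 37.2%, 48.5% and 40.7%, and 59.5%, 55.0% and 63.8%. The GC content came from the longest GENCODE 29 transcript of each gene. No paired analysis was possible because each condition has 1 library. Depth limits HIF3A in normoxia (36 fragments) and ARNT2 most.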

Other observations

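The other enzymes that use oxygen and 2-oxoglutarate as the HIF hydroxylases do included 4 of 24 measured genes called higher in hypoxia than in normoxia and 0 lower, beside 10.8% and 8.06% of all measured genes, with a median log2 ratio of 0.31. Under total fragments the 4 became 6, with TET2 and KDM5B. Of the 4, KDM3A and P4HA1 are also on the list of genes often assigned to HIF1A, where their calls were counted as well. PLOD2, a lysyl hydroxylase of collagen, stood at 23.9, 179 and 257 FPKM in normoxia, hypoxia and oxamate, a ratio of hypoxia to normoxia of 7.60 (7.37 to 7.84). P4HA1, a collagen prolyl hydroxylase, stood at 4.07 (3.82 to 4.34), and the histone demethylases KDM4B and KDM3A at 3.00 (2.82 to 3.20) and 2.91 (2.77 to 3.07). The lowest of the 24 in hypoxia against normoxia were ASPH at 0.529 (0.508 to 0.551) and PLOD3 at 0.546 (0.522 to 0.571), both within the 2-fold rule. With oxamate against hypoxia 2 were called higher, JMJD6 at 2.12 (1.99 to 2.27) and P4HA2 at 2.06 (1.88 to 2.25), beside 5.92% of all measured genes, and 0 lower. P4HA2 fell short of the rule under total fragments (1.97). P4HTM, a transmembrane prolyl hydroxylase that can also act on HIF alpha, had 3, 8 and 5 fragments.

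Enzymes that make or use 2-oxoglutarate, succinate and fumarate, metabolites that bear on hydroxylase activity, had 2 of 11 called lower in hypoxia against normoxia and 0 higher, beside 8.06% and 10.8% of all measured genes, with a median log2 ratio of -0.66 beside -0.11. IDH1, the cytosolic isocitrate dehydrogenase, stood at 95.5, 28.2 and 30.1 FPKM in normoxia, hypoxia and oxamate, a ratio of hypoxia to normoxia of 0.299 (0.288 to 0.310). IDH3A stood at 0.432 (0.375 to 0.498). IDH2, the mitochondrial isocitrate dehydrogenase that uses NADP, went the other way at 1.85 (1.80 to 1.91), within the 2-fold rule, and passed it under total fragments (2.06). With oxamate against hypoxia 0 of the 11 were called.

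Among 10103 protein-coding genes with at least 100 fragments in each library, the 3 nearest to EGLN3 over the log2 ratios of hypoxia to normoxia and of oxamate to hypoxia were TMEM45B, A2M and GPR157, at distances of 0.10, 0.10 and 0.17. A2M, alpha-2-macroglobulin, had ratios of 5.50 and 1.38 in those comparisons. The 3 nearest to HIF1A were BBC3, UBALD1 and CBWD6, each within 0.03. These likenesses rest on 2 ratios from 3 libraries.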
